A study of Mus musculus with 6 samples.

Results

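Troponins and myosin light chains, the regulatory proteins of the cardiac thin and thick filaments, were followed through RNA-seq of infarcted hearts with and without Zeb2 in cardiomyocytes. The group was a fixed list of 10 genes taken by gene symbol from a table of 38293 genes: the cardiac troponins Tnnt2, Tnni3 and Tnnc1, the ventricular light chains Myl2 and Myl3, the atrial light chains Myl4 and Myl7, the slow skeletal troponins Tnni1 and Tnnt1, and the kinase Mylk3. The cardiac troponins, which atria use too, are grouped with Myl2 and Myl3 as the 5 ventricular members. Of these 10, 9 were among the 14746 genes with enough counts to be tested, and Tnni1 was not. The study compared 3 mice labelled WT with 3 Zeb2 cKO mice, 1 RNA-seq library per mouse. The WT animals carried the floxed Zeb2 allele without Cre and are called Zeb2 fl/fl here. Zeb2 cKO animals carried the same floxed allele together with Cre driven by the murine Myh6 promoter, which is active in cardiomyocytes and leaves Zeb2 intact in other cells. All 6 were adult male C57BL/6J (backcrossed) mice in which the left anterior descending artery had been tied permanently, and heart tissue was taken 14 days after this myocardial infarction (MI). The sample labels place the tissue in the border region of the infarct, whereas the study's methods place the sequenced tissue in the remote zone.

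Troponin is the calcium switch of the thin filament. Troponin C binds calcium, troponin I blocks the actin site for myosin until calcium arrives, and troponin T anchors the complex to tropomyosin. Each myosin head carries an essential and a regulatory light chain, and cardiac myosin light chain kinase, encoded by Mylk3, phosphorylates the regulatory one. In the adult mouse heart, ventricles use Myl3 and Myl2 and atria use Myl4 and Myl7, while Tnni1 and Tnnt1 are the troponin forms of slow skeletal fibres and, for Tnni1, of the fetal heart.

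Library totals ran from 37288174 to 51136331 counts, and 60.5% to 67.0% of these belonged to mitochondrially encoded genes. At least 14301225 counts per library lay outside them. Levels are given as CPM, counts relative to the total of their library, after TMM scaling, which corrects for differences in library composition. The targeted gene Zeb2 stood at 61.3, 116.05 and 71.9 CPM in Zeb2 fl/fl 1, 2 and 3 and at 59.6, 72.6 and 66.5 CPM in Zeb2 cKO 1, 2 and 3. These groups overlapped (log2 fold change -0.33, SE 0.25, adjusted p 0.957 by edgeR's quasi-likelihood test). With Zeb2 fl/fl 2 set aside, the Zeb2 fl/fl values (61.3 and 71.9 CPM) lay within the range of Zeb2 cKO. Counts over the whole gene in whole tissue also take in Zeb2 of other cell types. In the paper, qPCR and immunofluorescence after MI showed loss of ZEB2 from cardiomyocytes. Zeb2 fl/fl 2 stood apart from the other 5 libraries: all 12 fibroblast markers and all 12 macrophage markers had log2 fold changes (Zeb2 cKO against Zeb2 fl/fl) under -0.2 with it, and 0 of either list without it. The summed fibroblast markers reached 10035 CPM in that library, against 1760 and 2188 CPM in the other Zeb2 fl/fl libraries and 1755 to 2403 CPM in Zeb2 cKO. Fold changes that move with Zeb2 fl/fl 2 are therefore also given without it.

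The ventricular members were among the most abundant transcripts of the tissue. By mean CPM, Myl2 ranked 15, Tnnt2 27, Tnni3 30, Myl3 32 and Tnnc1 43 among the 14746 tested genes. Mylk3 ranked 145, while Tnnt1 ranked 9624, Myl4 9981 and Myl7 11204. Together the 10 genes took 1.38% to 2.14% of the counts outside mitochondrially encoded genes, the lowest share being that of Zeb2 fl/fl 2. The markers fitted the heart label of the tissue: the ventricular light chain Myl2 was abundant in all 6 libraries, whereas the atrial light chains and the slow skeletal troponins were present at a few CPM or less in most.

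Members form close pairs at 2 places in the mouse genome (GRCm38). Tnnt2 (chr1:135836354-135852260, plus strand) lies 25364 bases from Tnni1 (chr1:135779434-135810989, plus strand). Tnni3 (chr7:4518305-4524229, minus strand) lies 1922 bases from Tnnt1 (chr7:4504570-4516382, minus strand). Both stretches hold a cardiac troponin gene at a high level and a slow skeletal one at a low level, with Lad1 between them in the first. The other members are Tnnc1 (chr14:31208312-31211729, plus), Myl2 (chr5:122100951-122113472, plus), Myl3 (chr9:110741861-110769798, plus), Mylk3 (chr8:85324303-85386345, minus), Myl4 (chr11:104550663-104595753, plus) and Myl7 (chr11:5896637-5898782, minus). No coding transcript of the 10 shared a stretch of at least 75 bases at 95% identity with another gene. Exons of Tnni3, Myl2, Myl3 and Myl4 overlap those of Dnaaf3, Ccdc63, Pth1r and Gm22000, over 0.065% to 4.65% of the member's exon bases. Those neighbours had mean levels between 0.0405 and 2.71 CPM.

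ZEB2 is a zinc finger transcription factor that binds paired E2 boxes (CACCTG, or CAGGTG on the other strand), so promoters are shown for 4 members. These are Tnnt2 and Tnni3, whose levels followed each other most closely, and Myl3 and Myl7, a ventricular and an atrial light chain. Each sequence is the 250 bases before a RefSeq transcript start (GRCm38.p6), written 5′ to 3′ on the gene's strand. Capitals mark matches, on both strands, to the E2 box, to a GATA motif (AGATAA or TTATCT) and to the CArG box bound by serum response factor. The windows are chr1:135836084-135836333 (plus) for Tnnt2, chr7:4522529-4522778 (minus) for Tnni3, chr9:110763428-110763677 (plus) for Myl3 and chr11:5898783-5899032 (minus) for Myl7.
Tnnt2: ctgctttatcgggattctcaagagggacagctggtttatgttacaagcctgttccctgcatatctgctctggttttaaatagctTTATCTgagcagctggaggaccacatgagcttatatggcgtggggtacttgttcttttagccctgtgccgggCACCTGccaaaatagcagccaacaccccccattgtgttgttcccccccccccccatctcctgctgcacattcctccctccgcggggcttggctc
Tnni3: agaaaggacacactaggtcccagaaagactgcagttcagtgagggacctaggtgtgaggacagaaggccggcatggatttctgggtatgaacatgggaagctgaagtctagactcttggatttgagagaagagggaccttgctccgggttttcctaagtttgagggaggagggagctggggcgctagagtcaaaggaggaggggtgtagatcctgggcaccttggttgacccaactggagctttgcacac
Myl3: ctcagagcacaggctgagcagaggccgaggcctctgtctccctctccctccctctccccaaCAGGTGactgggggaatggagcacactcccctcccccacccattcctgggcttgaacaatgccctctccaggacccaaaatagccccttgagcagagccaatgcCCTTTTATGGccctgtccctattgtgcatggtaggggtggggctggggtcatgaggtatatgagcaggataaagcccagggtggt
Myl7: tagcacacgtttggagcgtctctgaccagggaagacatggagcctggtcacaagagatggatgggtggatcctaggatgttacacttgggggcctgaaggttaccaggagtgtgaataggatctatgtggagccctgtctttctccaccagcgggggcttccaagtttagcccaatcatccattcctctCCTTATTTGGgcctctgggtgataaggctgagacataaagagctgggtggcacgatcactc
All 10 members matched the RefSeq promoter table, and 9 had a start within 50 bases of that of an annotated coding transcript. Myl2, whose starts in this table lie at least 7762 bases from one, was left out of the counts. An E2 box was present in 4 of the 9 (Tnnt2, Myl3, Tnni1 and Tnnt1), against 17.2% of all 32851 mouse promoter windows of this length. The member windows with an E2 box held 1 each, so paired boxes were not shown. CArG boxes were found in Myl3 and Myl7, against 1.47% of windows. The GATA motif was found in Tnnt2, against 9.99%, and the MEF2 motif CTANNNNTAG in 0 of the 9, against 3.2%. A further Mylk3 window, whose start lies 63 bases from that of a coding transcript and so was not counted, holds 2 GATA motifs. In the printed sequences no match overlaps another. These matches describe the letters of the window, and binding was not measured here.

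Comparison of Zeb2 cKO with Zeb2 fl/fl addressed whether loss of Zeb2 from cardiomyocytes changed the contractile regulators after MI. None of the 9 tested members passed the test for a difference between genotypes. With edgeR's quasi-likelihood test and Benjamini-Hochberg adjustment, 0 of 9 members and 0% of all 14746 genes were called at an adjusted p of 0.05, and adjusted p-values of the members ran from 0.957 to 0.999. Before adjustment 280 genes, 1.9% of those tested, had a p under 0.05, and 0 members did in this fit. DESeq2 called 2 genes in all and 0 members. Myl4 and Myl7 had unadjusted p of 0.0287 and 0.0123 with DESeq2, 0.0337 and 0.0288 with no filter on low counts, and 0.0130 and 0.0260 without Zeb2 cKO 1, and Myl7 had 0.0370 with scaling to cardiomyocyte markers. Adjusted p-values there were 0.858 to 1.00. The 3 libraries of each genotype overlapped for all 10 members, where 6.36% of tested genes had groups that did not overlap. Log2 fold changes were above 0 for 8 of 9 members, against 48.6% of all genes, with a median of 0.17 against -0.0069. That count fell to 3 of 9 without Zeb2 fl/fl 2. It was 6 of 9 after scaling to the summed cardiomyocyte markers, which moved the median of all genes to -0.22. Most of that sum was Ttn, with 43302 of 61404 CPM in Zeb2 fl/fl 1 and 44093 of 62443 CPM in Zeb2 cKO 1. With all 6 libraries and TMM scaling, only Tnni3, Myl4 and Myl7 exceeded 0.2, against 15.9% of all genes. In that fit 0 members fell under -0.2, against 22.6%.

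**Figure D1:**
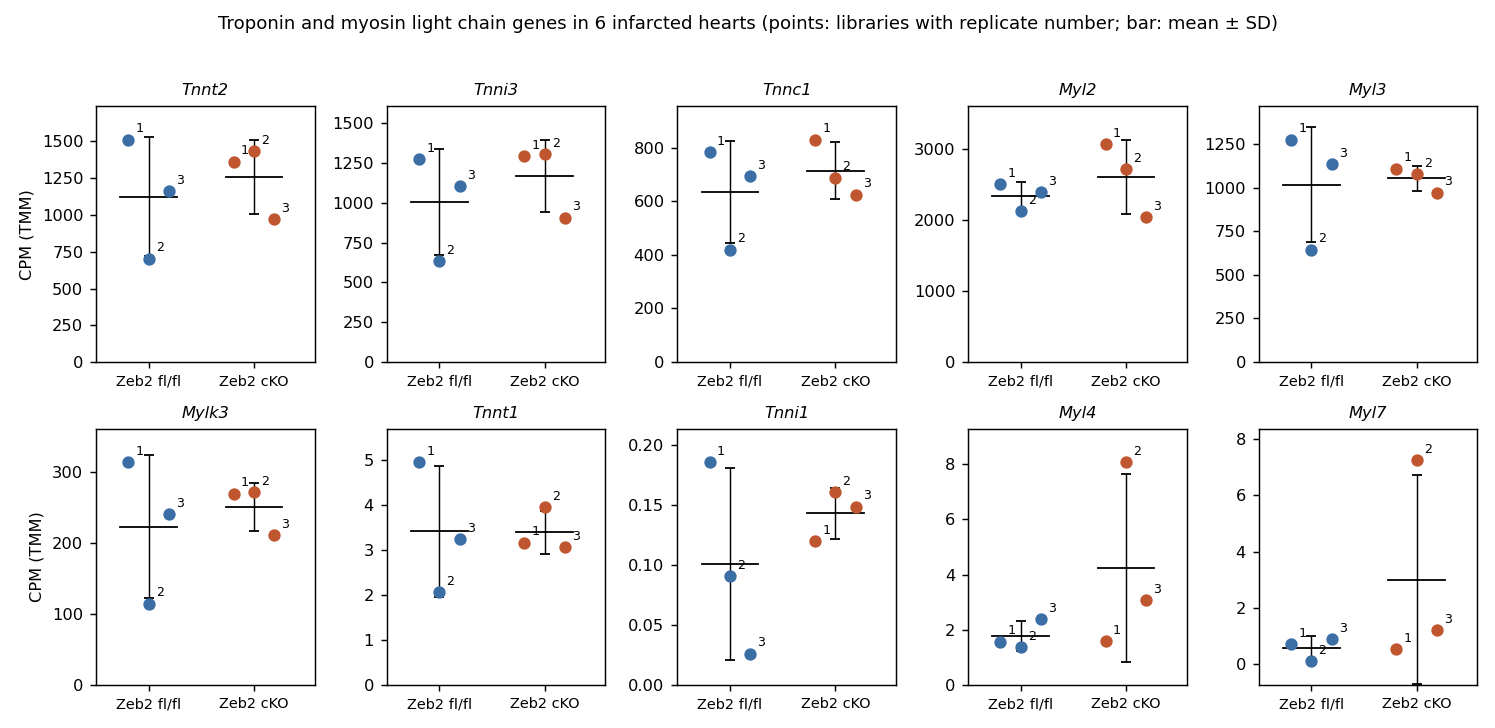
Levels of the 10 genes as TMM-scaled CPM (vertical axes, a separate scale per gene) in the 3 Zeb2 fl/fl (blue) and 3 Zeb2 cKO (orange) libraries; points are libraries with their replicate number and bars are mean ± SD. Zeb2 fl/fl 2 is the lowest Zeb2 fl/fl library for Tnnt2, Tnni3, Tnnc1, Myl2, Myl3, Mylk3 and Tnnt1, and Zeb2 cKO 2 is the highest point for Myl4 (8.07 CPM) and Myl7 (7.26 CPM).

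Among the cardiac troponins, Tnnt2, which encodes the tropomyosin-binding subunit, stood at 1513, 704 and 1160 CPM in Zeb2 fl/fl 1, 2 and 3 and at 1363, 1436 and 971 CPM in Zeb2 cKO 1, 2 and 3. The single low library was Zeb2 fl/fl 2, and the other 5 libraries, of both genotypes, lay between 971 and 1513 CPM. Group means were 1126 ± 405 and 1257 ± 250 CPM (SD, n = 3 each). Between genotypes the log2 fold change was 0.16 (SE 0.32, 95% interval -0.61 to 0.93, adjusted p 0.960 by edgeR), and -0.087 without Zeb2 fl/fl 2.

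Tnni3, the inhibitory subunit, had 1274, 635 and 1105 CPM in Zeb2 fl/fl, against 1293, 1306 and 906 CPM in Zeb2 cKO. Its order of libraries resembled that of Tnnt2, with Zeb2 fl/fl 2 lowest and Zeb2 cKO 3 next. Its log2 fold change was 0.22 (SE 0.31, interval -0.52 to 0.95, adjusted p 0.957 by edgeR), and -0.023 without Zeb2 fl/fl 2. Tnnc1, the calcium-binding subunit of cardiac and slow muscle, had 785, 420 and 696 CPM in Zeb2 fl/fl, against 831, 689 and 626 CPM in Zeb2 cKO. Here too only Zeb2 fl/fl 2 lay clearly below the other libraries. For Tnnc1 the log2 fold change was 0.18 (SE 0.27, interval -0.47 to 0.82), and -0.047 without Zeb2 fl/fl 2.

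Of the ventricular light chains, Myl2, the regulatory chain, had 2503, 2117 and 2386 CPM in Zeb2 fl/fl, against 3065, 2709 and 2040 CPM in Zeb2 cKO. Its lowest library was Zeb2 cKO 3, unlike the troponins. Means were 2335 ± 198 and 2605 ± 520 CPM, with a log2 fold change of 0.16 (SE 0.24, interval -0.42 to 0.74) that became -0.057 after scaling to cardiomyocyte markers. Myl3, the essential chain, had 1277, 646 and 1134 CPM in Zeb2 fl/fl, against 1109, 1079 and 972 CPM in Zeb2 cKO. The Zeb2 cKO libraries lay close together (1054 ± 72.1 CPM), whereas Zeb2 fl/fl spread more widely (1019 ± 331 CPM). For Myl3 the log2 fold change was 0.05 (SE 0.28, adjusted p 0.988 by edgeR), -0.19 without Zeb2 fl/fl 2 and -0.069 after scaling to cardiomyocyte markers.

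Mylk3, the cardiac myosin light chain kinase, had 313, 114 and 240 CPM in Zeb2 fl/fl, against 269, 271 and 211 CPM in Zeb2 cKO. Zeb2 fl/fl 2 was again the low library, and the fall there was larger than that of any troponin or ventricular light chain. The log2 fold change was 0.17 (SE 0.35, adjusted p 0.960 by edgeR), and -0.14 without Zeb2 fl/fl 2. Single-gene exact permutation tests on CPM (two-sided, 3 against 3, smallest possible p 0.1) gave p from 0.5 to 1.0 for the ventricular members and p = 0.8 for Mylk3.

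**Figure D2:**
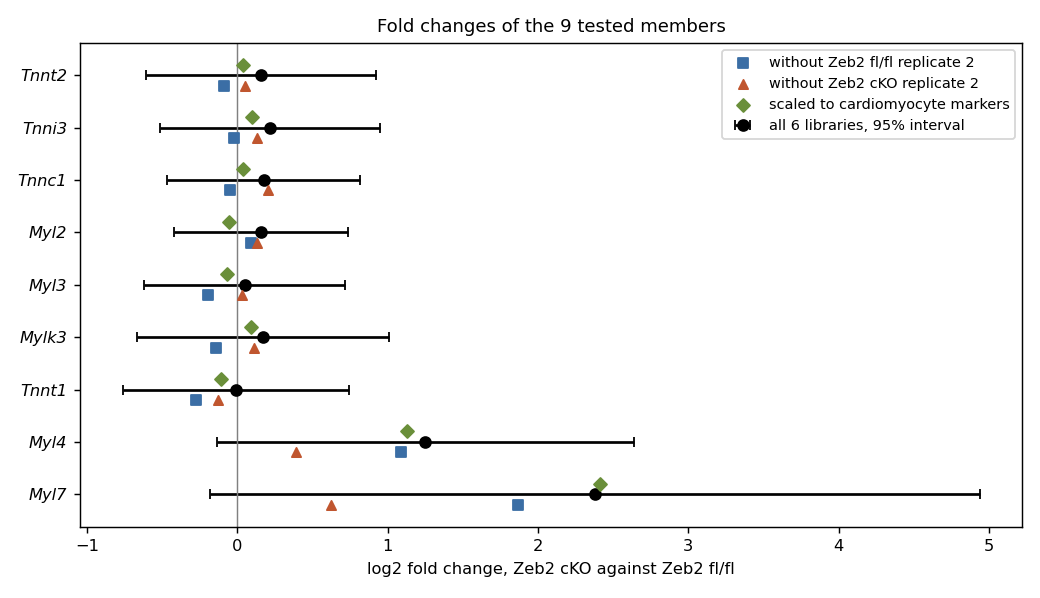
Log2 fold change of Zeb2 cKO against Zeb2 fl/fl (horizontal axis) for the 9 tested members: black points with 95% intervals for all 6 libraries, squares without Zeb2 fl/fl 2, triangles without Zeb2 cKO 2 and diamonds after scaling to cardiomyocyte markers. All 9 intervals include 0; without Zeb2 fl/fl 2 the estimates of Tnnt2, Tnni3, Tnnc1, Myl3, Mylk3 and Tnnt1 lie below 0, and without Zeb2 cKO 2 those of Myl4 and Myl7 shrink to 0.39 and 0.62.

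Variation within Zeb2 fl/fl was shared by most members. On the log2 scale and against the mean of the 6 libraries, Zeb2 fl/fl 2 lay at -0.71 for Tnnt2, -0.73 for Tnni3, -0.65 for Tnnc1, -0.65 for Myl3, -0.67 for Tnnt1 and -0.98 for Mylk3. Myl2 departed from this pattern at -0.21, as did the scarce Tnni1 at -0.20. Of the atrial light chains, Myl4 lay at -0.81 and Myl7 at -2.54, the latter from 5 counts. Relative to the mean of the other 4 ventricular members, Myl2 was 0.48 higher in Zeb2 fl/fl 2 and between -0.28 and 0.075 in the other 5 libraries. The same library had a mean deviation of -0.64 for 20 cardiomyocyte markers that include no member, 1.66 for the fibroblast markers, 1.56 for the macrophage markers and -0.34 for 12 endothelial markers. In bulk tissue, fewer cells of a type and less RNA per cell cannot be told apart, and the part of these cell-type markers in the members' values was not tested.

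**Figure D3:**
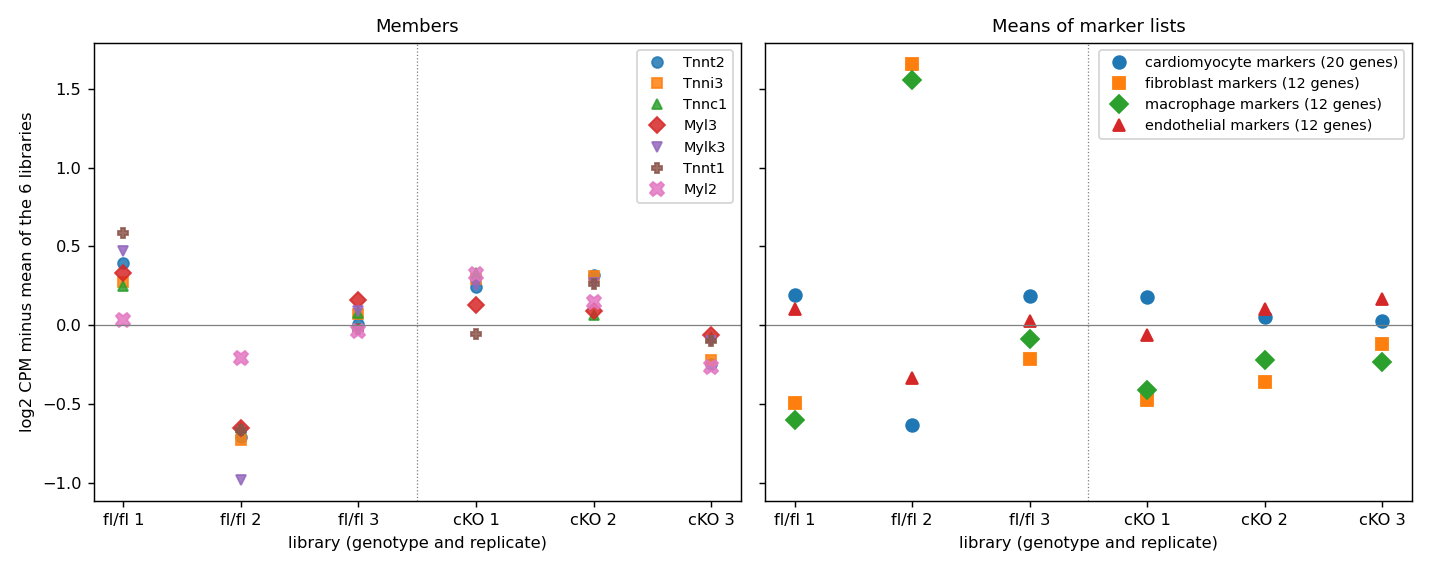
Deviation of log2 CPM from the mean of the 6 libraries (vertical axis, log2 units) by library, for 7 members on the left and for the means of 4 marker lists on the right. In Zeb2 fl/fl 2 all members shown but Myl2 (-0.21) lie at or below -0.65. Cardiomyocyte markers lie at -0.64 there, and fibroblast and macrophage markers lie at 1.66 and 1.56.

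Across the 6 libraries, Tnnt2 and Tnni3 had a Pearson correlation of log2 CPM of 0.988, Tnnt2 and Mylk3 one of 0.971 and Myl3 and Mylk3 one of 0.983. Myl2 followed the rest less closely, with 0.563 for Myl3 and 0.792 for Tnni3. All these values share the same 6 libraries of which Zeb2 fl/fl 2 was the lowest for most members, so they describe these libraries only. Among 5868 other genes with a mean of at least 10 CPM, those most like the mean of the 5 ventricular members were Nipsnap2 (r = 0.999), Echs1 (0.998), Sf3a1 (0.997), Sirt3 (0.997) and Zmynd11 (0.997). Echs1 encodes a mitochondrial enzyme of fatty acid oxidation and Sirt3 a mitochondrial deacetylase. Cyth1 (0.999) and Gpat3 (0.999) were most like Mylk3.

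Levels of different genes were compared per kilobase, since long transcripts collect more reads. With the length of all annotated exons of a gene, the means over 6 libraries were 1267 CPM per kb for Myl2, 648 for Tnnc1, 527 for Tnni3, 507 for Myl3, 154 for Tnnt2 and 55.2 for Mylk3. The annotated exons of Tnnt2 include retained introns and span 7752 bases, against 1200 bases for its longest coding transcript. With coding transcript lengths, a choice made after these spans were seen, the order was Myl2 (2778 CPM per kb), Tnni3 (1191), Myl3 (1106), Tnnt2 (993), Tnnc1 (935) and Mylk3 (63.9). On this second scale Myl2 lay above Tnni3 in 6 of 6 libraries with no overlap, while the ranges of Tnni3, Myl3, Tnnt2 and Tnnc1 overlapped from each neighbour to the next. The 3 cardiac troponin subunits, which join in equal numbers in the complex, had overlapping ranges with coding lengths only. Tnnt2 lay below the other two in 6 of 6 libraries with all exons, and also with the longest annotated transcript (358 CPM per kb, against 1191 for Tnni3 and 935 for Tnnc1), which for Tnnt2 retains an intron. Below Mylk3 followed Tnnt1 (3.21), Myl4 (3.19) and Myl7 (3.04), which overlapped one another, and Tnni1 (0.106), which lay below them in 6 of 6 libraries. The mean of Myl7 rests on 12.3 CPM per kb in Zeb2 cKO 2, the other 5 libraries having 0.193 to 2.08, and Myl4 had 8.55 there and 1.45 to 3.26 in the others. With all exons the order was Myl7 (3.04), Tnnt1 (1.54), Myl4 (0.649) and Tnni1 (0.0339).

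The slow skeletal troponins were scarce in both genotypes. Tnnt1, the slow skeletal tropomyosin-binding subunit, had 4.94, 2.05 and 3.23 CPM in Zeb2 fl/fl, against 3.16, 3.94 and 3.05 CPM in Zeb2 cKO. Both extremes belonged to Zeb2 fl/fl, and the group means were nearly equal (3.41 ± 1.45 and 3.38 ± 0.486 CPM). The log2 fold change was -0.0079 (SE 0.32, interval -0.76 to 0.75, adjusted p 0.999 by edgeR), 0.36 without Zeb2 fl/fl 1 and -0.27 without Zeb2 fl/fl 2.

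Tnni1, the inhibitory subunit of slow skeletal fibres and of the fetal heart, had 7, 4 and 1 counts in Zeb2 fl/fl and 6, 7 and 8 counts in Zeb2 cKO. These numbers correspond to 0.0260 to 0.186 CPM, the groups overlapped, and the gene was below the filter for testing. Of the counts of Tnni1 and Tnni3 together, Tnni1 made up 0.0146% in Zeb2 fl/fl 1 (95% Wilson interval 0.00706% to 0.0301%). The share was 0.00236% in Zeb2 fl/fl 3 (0.000416% to 0.0134%) and 0.0164% in Zeb2 cKO 3 (0.00833% to 0.0324%). Such intervals cover counting error only. At this depth a difference in Tnni1 between genotypes was not detectable.

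Summed per library, the fast skeletal troponins were scarcer, at 0.398 to 0.726 CPM against 2.14 to 5.12 CPM for the slow ones. Most of the slow sum was Tnnt1, at 2.05 to 4.94 CPM. For troponin I the order was reversed in all libraries but Zeb2 fl/fl 1, which had 0.159 CPM of Tnni2 and 0.186 CPM of Tnni1. Tnni2 had 0.159, 0.273 and 0.156 CPM in Zeb2 fl/fl, against 0.380, 0.323 and 0.335 CPM in Zeb2 cKO, a log2 fold change of 0.80 (SE 0.34, unadjusted p 0.0511 and adjusted p 0.957 by edgeR), and 1.12 without Zeb2 fl/fl 2. Its groups did not overlap, but the gene had 75 counts in all 6 libraries together. Tnnt3 had a log2 fold change of 0.14, and Tnnc2, with 7 counts in all, was not tested. Of 19 skeletal muscle markers 6 were tested, 4 of them over 0.2, 1 under -0.2 and 0 called. Those with the smallest p were Myl1, described further on, the myosin-binding protein gene Mybpc2 with a log2 fold change of 0.94 (0.66 without Zeb2 fl/fl 2), and Tnni2. Their summed level was 400 to 905 CPM in Zeb2 fl/fl, against 289 to 1298 CPM in Zeb2 cKO, most of it from Acta1, which cardiac muscle also expresses. The defining markers Myog and Myod1, myogenic factors of skeletal muscle, had 0 and 2 counts.

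The atrial light chains had the largest estimated differences of the 9 tested members, and a single library carried most of each. Myl7, the atrial regulatory chain, had 0.717, 0.114 and 0.911 CPM in Zeb2 fl/fl, against 0.540, 7.26 and 1.23 CPM in Zeb2 cKO, from 27, 5 and 35 counts and 27, 315 and 66 counts. Zeb2 cKO 2 stood far above the other 5 libraries, and Zeb2 cKO 1 lay within the range of Zeb2 fl/fl. The log2 fold change was 2.38 (SE 1.08, interval -0.18 to 4.94, unadjusted p 0.0640 and adjusted p 0.957 by edgeR), 0.62 without Zeb2 cKO 2 and 1.87 without Zeb2 fl/fl 2. The exact permutation test gave p = 0.3.

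Myl4, the atrial essential chain, had 1.57, 1.37 and 2.40 CPM in Zeb2 fl/fl, against 1.58, 8.07 and 3.07 CPM in Zeb2 cKO. Zeb2 cKO 2 was again highest, with 350 counts against 59 to 165 in the others. The log2 fold change was 1.25 (SE 0.58, interval -0.13 to 2.64, unadjusted p 0.0700 and adjusted p 0.957 by edgeR), 0.39 without Zeb2 cKO 2 and 1.09 without Zeb2 fl/fl 2. The exact permutation test gave p = 0.2. Across the 6 libraries Myl4 and Myl7 had a correlation of 0.933, and neither followed the ventricular members as closely (0.327 for Myl4 and 0.630 for Myl7 with Tnnt2). Genes most like Myl7 were Cd59a (0.969), St3gal6 (0.958) and Tmx1 (0.954), and those most like Myl4 were Pgrmc2 (0.937), Acta2 (0.929) and Aplnr (0.914).

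Other atrial genes differed in whether they shared the high value of Zeb2 cKO 2. Sln, which encodes the calcium pump regulator sarcolipin of atria, had 0.0531, 0.0228 and 0.312 CPM in Zeb2 fl/fl, against 0.0400, 1.75 and 0.279 CPM in Zeb2 cKO. Mybphl, an atrial myosin-binding protein gene, had 0.0796, 0 and 0.312 CPM against 0.0400, 1.27 and 0.167 CPM. Like Myl7, both were highest in Zeb2 cKO 2. Nppa, the natriuretic peptide gene of atria and of stressed ventricles, went the other way, with 337, 717 and 309 CPM in Zeb2 fl/fl, against 189, 131 and 188 CPM in Zeb2 cKO. Its groups did not overlap (log2 fold change -1.42, SE 0.36, unadjusted p 0.00584 and adjusted p 0.957 by edgeR), and Zeb2 cKO 2 was its lowest library. Without Zeb2 fl/fl 2 its log2 fold change was -0.93. Kcnj5, a potassium channel gene of atria, had a log2 fold change of 0.71 and Dkk3 one of -1.35, which were 0.50 and 0.14 without Zeb2 fl/fl 2. Bmp10, a right atrial growth factor, had 0 counts in every library. Over the whole list of 10 atrial markers, 8 were tested, 4 were over 0.2, 2 under -0.2 and 0 called. Without Zeb2 fl/fl 2 there were 2 over 0.2 and 2 under -0.2. The summed list was 376 to 809 CPM in Zeb2 fl/fl, against 209 to 268 CPM in Zeb2 cKO, most of it Nppa. The part of atrial tissue in the values of Myl4 and Myl7 was not tested.

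**Figure D4:**
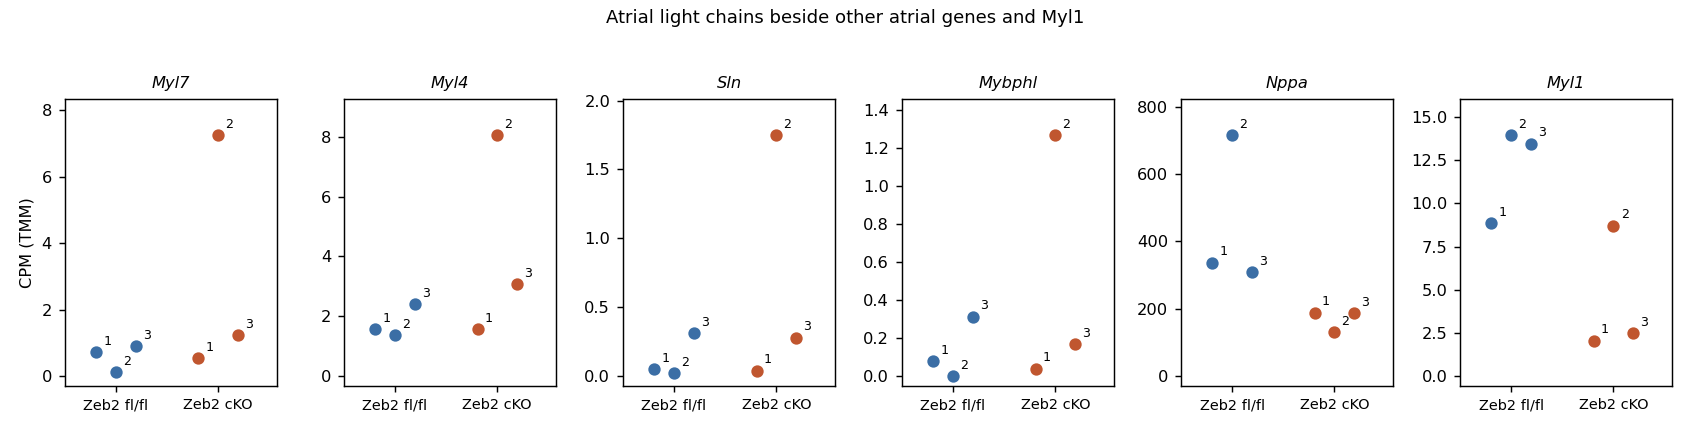
TMM-scaled CPM (vertical axes, a separate scale per gene) of Myl7, Myl4, the atrial genes Sln, Mybphl and Nppa, and the light chain gene Myl1 in each library, labelled by replicate number. Zeb2 cKO 2 is highest for Myl7 (7.26), Myl4 (8.07), Sln (1.75) and Mybphl (1.27) but lowest for Nppa (131), and Myl1 is lower in all Zeb2 cKO libraries (2.06 to 8.71) than in Zeb2 fl/fl (8.87 to 14.0).

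Ratios of alternative forms within a library do not depend on library size. Per 1000 counts of Tnni3 there were 0.146, 0.144 and 0.0236 counts of Tnni1 in Zeb2 fl/fl and 0.0927, 0.124 and 0.164 in Zeb2 cKO. Per 1000 counts of Tnnt2 there were 3.26, 2.91 and 2.78 counts of Tnnt1 in Zeb2 fl/fl and 2.32, 2.74 and 3.14 in Zeb2 cKO. The ratio of the troponin T forms thus stayed between 2.32 and 3.26 in all 6 libraries, Zeb2 fl/fl 2 included. The atrial to ventricular ratios spread more. Myl7 per 1000 Myl2 was 0.286, 0.0538 and 0.382 in Zeb2 fl/fl and 0.176, 2.68 and 0.602 in Zeb2 cKO. For Myl4 per 1000 Myl3 the values were 1.23, 2.12 and 2.11 in Zeb2 fl/fl and 1.42, 7.47 and 3.16 in Zeb2 cKO. Even in Zeb2 cKO 2, Myl7 made up 0.267% of the counts of both regulatory chains (95% Wilson interval 0.239% to 0.298%) and Myl4 0.742% of those of both essential chains (0.668% to 0.823%).

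Mylk3 per 1000 Myl2, the kinase relative to its substrate, was 125, 54.0 and 100 in Zeb2 fl/fl and 87.7, 100 and 103 in Zeb2 cKO. Zeb2 fl/fl 2 had the lowest ratio, where Mylk3 was -0.98 and Myl2 -0.21 from the mean of the 6 libraries on the log2 scale. No ratio of the 5 passed the exact permutation test between genotypes, whose two-sided p were 0.3 to 0.9 and whose smallest possible p is 0.1. After adjustment over the 5 ratios, the permutation p were 0.667 to 0.9. Differences of mean log2 ratio, Zeb2 cKO minus Zeb2 fl/fl, were 1.86 for Myl7 to Myl2, 0.87 for Myl4 to Myl3, 0.64 for Tnni1 to Tnni3, 0.14 for Mylk3 to Myl2 and -0.14 for Tnnt1 to Tnnt2. The Myl7 to Myl2 difference became 0.85 without Zeb2 cKO 2 and 0.99 without Zeb2 fl/fl 2, which holds its lowest ratio. Without Zeb2 cKO 2 the Myl4 to Myl3 difference was 0.27, and without Zeb2 fl/fl 2 that of Mylk3 to Myl2 was -0.21. For Tnni1 to Tnni3 it was -0.23 without Zeb2 fl/fl 3, which had 1 count of Tnni1.

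**Figure D5:**
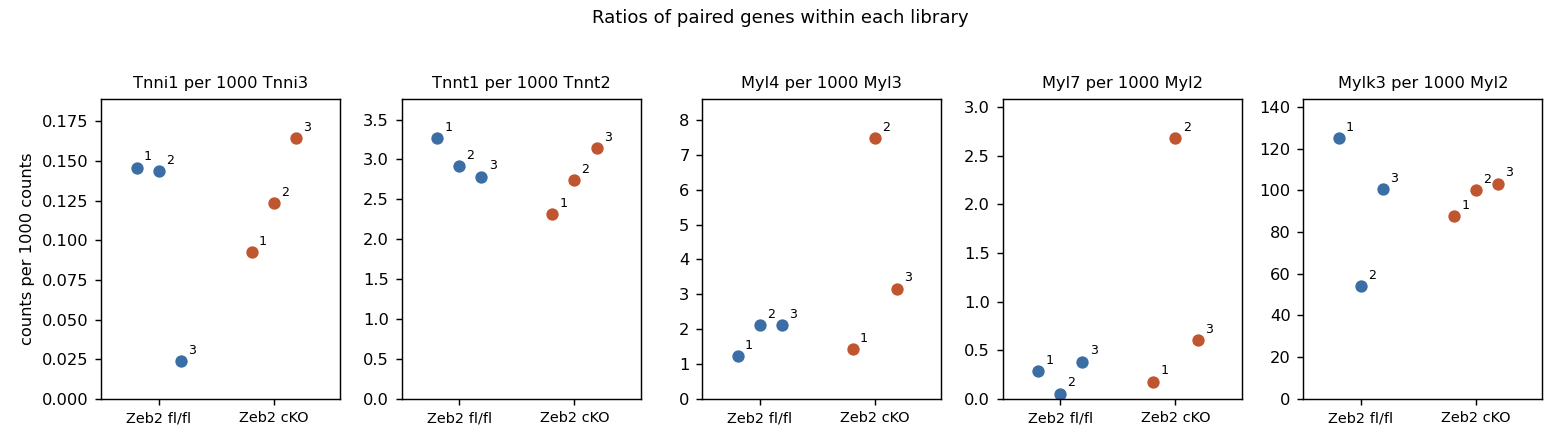
Counts of 1 gene per 1000 counts of its partner (vertical axes from 0, a separate scale per pair) in each library, labelled by replicate number. The groups overlap for all 5 ratios, Zeb2 cKO 2 is highest for Myl4 to Myl3 (7.47) and Myl7 to Myl2 (2.68), and Zeb2 fl/fl 2 is lowest for Mylk3 to Myl2 (54.0).

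No other gene of the pathway passed the test. Of 8 other myosin light chain genes 6 were tested, 0 were called, 2 were under -0.2 and 0 over 0.2, with a median log2 fold change of -0.11. Myl1, the essential chain of fast skeletal muscle, had 8.87, 14.0 and 13.5 CPM in Zeb2 fl/fl, against 2.06, 8.71 and 2.51 CPM in Zeb2 cKO. All 3 Zeb2 cKO libraries lay below all Zeb2 fl/fl libraries, though Zeb2 cKO 2 only narrowly. Myl1 had a log2 fold change of -1.46 (SE 0.55, unadjusted p 0.0331 and adjusted p 0.957 by edgeR), and -1.35 without Zeb2 fl/fl 2. Myl12b and Myl6, light chains of non-muscle and smooth muscle myosin, had log2 fold changes of -0.32 and -0.11. Without Zeb2 fl/fl 2 they had -0.020 and 0.068, and only 1 of the 6 was under -0.2. Among 7 other genes for light chain kinases and phosphatase, 6 were tested, 0 called and 1 over 0.2, namely the muscle kinase Mylk4 at 0.33. The myosin phosphatase subunits Ppp1r12b and Ppp1r12a had 0.17 and 0.061. Without Zeb2 fl/fl 2 these became -0.031 for Mylk4, -0.088 for Ppp1r12b and -0.079 for Ppp1r12a, with 0 of the 6 over 0.2.

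Of 16 other thin and thick filament genes, 15 were tested, 0 called, 5 over 0.2 and 1 under -0.2, with a median of 0.13. Without Zeb2 fl/fl 2 only 1 was over 0.2 and 1 under -0.2, and the median was -0.062. Tpm2, which encodes beta-tropomyosin, to which troponin T binds, had means of 9.90 ± 0.408 CPM in Zeb2 fl/fl, against 12.2 ± 0.736 CPM in Zeb2 cKO. Its libraries did not overlap, and the log2 fold change was 0.30 (SE 0.11, unadjusted p 0.0282 and adjusted p 0.957 by edgeR). The tropomyosin gene Tpm3 and the filament capping gene Tmod1 had log2 fold changes of -0.23 and 0.25, which were -0.13 and 0.072 without Zeb2 fl/fl 2. The 20 cardiomyocyte markers had a median of 0.15, with 6 over 0.2 and 1 under -0.2. Without Zeb2 fl/fl 2 their median was -0.11, with 0 over 0.2 and 4 under -0.2, beside a median of -0.047 for the 9 tested members.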

How the data were processed

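The authors deposited 1 table of raw read counts per gene, with 1 column for each of the 6 libraries. Following the study's methods and the labels, stranded libraries were made from RNA without ribosomal RNA, and reads were aligned and counted on Gencode M4 (GRCm38) with the STAR workflow. The STAR version, the strand option and the handling of reads with several matches are not given in the sources used here. The study tested with DESeq, which was not used here. Columns were matched to mice by their labels, and 0 columns stayed unmatched.

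Symbols, coordinates and lengths came from Gencode M21 (GRCm38) by gene identifier (14573 of 14746 tested genes had a symbol), and promoters from RefSeq (GRCm38.p6). Counts were scaled with TMM in edgeR 4.0.16 (R 4.3.3), filtered by filterByExpr, which kept 14746 genes, and compared between genotypes by glmQLFit and glmQLFTest (prior count 0.125, Benjamini-Hochberg adjustment over all tested genes, threshold 0.05). The fit was checked on simulated data. A log2 fold change of 0.2 either way served as a limit of size. Deviations and correlations used log2 CPM with a prior count of 2. Single genes and ratios were compared by exact permutation tests in Python 3.11.15 with scipy 1.17.1. BLAST 2.17.0 served to look for near-identical copies. Libraries had 37288174 to 51136331 counts, and counting error was not separated from the spread between mice. Counts were low for Tnni1, with 1 to 8 per library, and for Myl7, with 5 in Zeb2 fl/fl 2.

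Members and gene lists were chosen with earlier results of these data known. Text names all members and Zeb2, the 3 genes with the smallest unadjusted p of each pathway, atrial and skeletal list, the genes most like the members, and neighbouring genes. Lists of other cell types are given as summaries over the list. The smooth muscle and pericyte list and likeness to Tnni1 and Tnnt1 are left out. Sln, Mybphl, Bmp10, Acta1, Myog, Myod1 and Tnnc2 were also named with their values seen. Alternatives were DESeq2 size factors, DESeq2 1.42.0, no filter on low counts, robust dispersions, a replicate block and removal of mitochondrially encoded genes. Others were scaling to the sum of 20 cardiomyocyte markers, group medians for ratios, other gene lengths, and leaving out each library.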

Additional observations from a re-analysis of the deposited data

How the results depend on the processing

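No member was called under any of the settings run, and over all genes 0 were called except with DESeq2 (2). Replicate numbers gave no sign that the mice were paired: same-numbered libraries had correlations of their deviations of 0.088, -0.14 and -0.087. With 3 mice per genotype these values cannot exclude pairing. With the replicate block, 0 genes were called and 6 members instead of 3 exceeded 0.2, with Tnnt1 at 0.061. Leaving out 1 library at a time gave 2 to 9 members over 0.2 (9 without Zeb2 fl/fl 1, 7 without Zeb2 cKO 3, 5 without Zeb2 fl/fl 3) and 0 to 1 under -0.2 (Tnnt1 without Zeb2 fl/fl 2). Signs changed for Tnnt2 (-0.087), Tnni3 (-0.023), Tnnc1 (-0.047), Myl3 (-0.19) and Mylk3 (-0.14) without Zeb2 fl/fl 2; for Myl2 (-0.057) and Myl3 (-0.069) with scaling to cardiomyocyte markers; and for Tnnt1 with no filter (0.010), without Zeb2 fl/fl 1 (0.36), without Zeb2 cKO 1 (0.039) and without Zeb2 cKO 3 (0.060). Over the left-out libraries, log2 fold changes ranged from -0.087 to 0.43 for Tnnt2, -0.023 to 0.43 for Tnni3, -0.047 to 0.36 for Tnnc1, 0.024 to 0.31 for Myl2, -0.19 to 0.24 for Myl3, -0.14 to 0.50 for Mylk3, -0.27 to 0.36 for Tnnt1, 0.39 to 1.65 for Myl4 and 0.62 to 2.87 for Myl7. Log2 ratios ranged from -0.23 to 1.09 for Tnni1 to Tnni3 (-0.22 with medians), -0.21 to 0.39 for Mylk3 to Myl2 (-0.0054 with medians), -0.24 to -0.021 for Tnnt1 to Tnnt2, 0.27 to 1.46 for Myl4 to Myl3 and 0.85 to 2.81 for Myl7 to Myl2. Under the pairing the ratios kept their values, with exact sign-flip permutation p of 0.25 to 1.0 (smallest possible 0.25). Scaling to cardiomyocyte markers changed the split of all genes from 3335 under -0.2 and 2351 over 0.2 to 7927 and 900, and no filter gave 7350 and 6797 of 24115 genes. Without Zeb2 fl/fl 2 the split was 1753 and 2120. With no filter Tnni1 had a log2 fold change of 0.52 (SE 0.65). The cause of these changes was not tested. With 3 mice per genotype, intervals of the 5 ventricular members reached from -0.62 to 0.95, and differences within a member's own interval were not excluded.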
